A study of Homo sapiens with 6 samples.

Results

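The genes that carry death signals from the TRAIL and FAS receptors to the initiator caspases were followed in NB4 cells exposed to maltonis. They are the ligand gene TNFSF10, the receptor genes TNFRSF10A, TNFRSF10B and FAS, the adaptor gene FADD, the caspase genes CASP8 and CASP10 and the inhibitor gene CFLAR. These 8 genes were taken by symbol from a list of names, with no threshold on their measured values. They were, however, chosen with earlier results of these data known. All 8 were among the 23368 symbols of the count tables and the 13209 genes that passed the filter on low counts. NB4 is a long-established human line of acute promyelocytic leukemia. Maltonis is a small molecule made by synthesis from maltol. RNA was sequenced from 3 libraries of not treated (n.t.) cells and 3 libraries of cells kept for 24 h with 10 µM maltonis. All 6 libraries came from this single line, the compound was diluted from a stock in water, and the labels name no vehicle for the n.t. cells.

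TRAIL, the product of TNFSF10, and FAS ligand bind receptors that carry a death domain in their cytoplasmic part. The bound receptors gather FADD, which recruits the precursors of caspase-8 and caspase-10 into a signaling complex where they become active and go on to cleave the executioner caspases. The product of CFLAR, c-FLIP, resembles caspase-8 but lacks its protease activity and takes its place in the complex. Other TRAIL receptors, the decoys, bind the ligand without a working death domain.

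The libraries held between 18492154 and 38205483 counts, so that 3 counts, taken as the floor of detection, stood at 0.0785 to 0.162 CPM (counts scaled to a common library total), for counting error only. Levels are given as CPM after scaling by the trimmed mean of M-values (TMM). Replicate 1 carries another code in the deposited names than replicates 2 and 3, called here batch A and batch B, and each batch holds both conditions. The 10 promyelocytic markers checked, led by MPO, summed to between 14455 and 16991 CPM in n.t. and between 9200 and 9747 CPM in maltonis-treated cells. Of the markers of other cells, the 3 T cell genes found summed to between 43.4 and 45.6 CPM in n.t. and 15.0 and 15.9 CPM in treated cells, nearly all of it CD3D, while CD3E had at most 2 counts. The 4 epithelial markers summed to 38.6 to 39.6 and 29.4 to 31.5 CPM. KRT18 was the highest of them, with a mean of 16.7 CPM over the 6 libraries. KRT19, with at most 2 counts, was the only 1 of the 4 with no library above 3 counts. The 3 B cell markers summed to 2.08 to 3.25 and 1.14 to 1.28 CPM with MS4A1 at 0, and the 4 erythroid and 4 fibroblast markers to less than 1 CPM in every library. The part of these shifts in the results was not tested, and a lower level in fewer cells cannot be told apart from less RNA in each cell.

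The receptor genes of the pathway moved in different directions under maltonis. Of the TRAIL death receptor genes, TNFRSF10B fell by 62.5% and TNFRSF10A fell by 47.0%, while FAS rose 1.38-fold, CASP8 1.37-fold and CASP10 1.43-fold. TNFSF10, FADD and CFLAR did not pass the test. In all, 3 of the 8 genes were higher and 2 lower at a false discovery rate (FDR) under 0.01 from edgeR's quasi-likelihood test, against 31.9% higher, 32.1% lower and 64% either way among all genes tested. A count of 5 in 8 lies near that background, so the count is no result about these genes. Their CPM did not overlap between the groups in 6 of the 8, 4 of them higher and 2 lower, against 76.6% of all genes (38.8% higher and 37.8% lower). The median log2 fold change was 0.07 over the 8 genes and 0.01 over all genes.

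**Figure D1:**
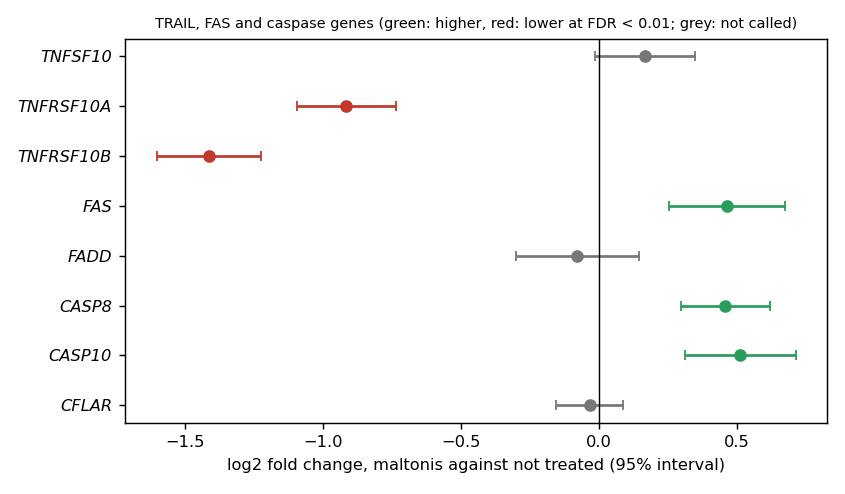
Log2 fold change of each gene in maltonis-treated against n.t. cells (x axis), with the 95% interval from edgeR's quasi-likelihood fit of 3 against 3 libraries. TNFRSF10A and TNFRSF10B lie to the left of 0, FAS, CASP8 and CASP10 to the right, and the intervals of TNFSF10, FADD and CFLAR include 0.

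TNFSF10 encodes the ligand itself and is known as a gene that interferons can induce. Its level was 23.1, 21.5 and 20.6 CPM in n.t. replicates 1, 2 and 3 and 23.4, 23.7 and 25.9 CPM in the treated ones. The treated libraries all lay above the n.t. libraries, but the gap between the nearest of them was small. The log2 fold change was 0.17 (standard error [SE] 0.0796, 95% interval −0.02 to 0.35), with an FDR of 0.0880 in the edgeR quasi-likelihood test. As a fold, the interval runs from 0.989 to 1.27. The log2 difference was 0.02 within batch A and 0.23 within batch B, and 84.1% of all genes tested had a log2 fold change of larger size. By the root mean square difference between log2 CPM profiles centred over the 6 libraries, the genes nearest to TNFSF10 were TMEM161B (0.0171), IFRD1 (0.0178), UXT (0.0189), GGCT (0.0238) and LSM1 (0.0242). None of these 5 was past the FDR threshold, with log2 fold changes from 0.14 to 0.19. Values near that of TNFSF10 follow from their choice by profile over the same 6 libraries.

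Promoter sequences are shown for the ligand gene, for a receptor gene that rose and for a caspase gene that rose, so that their interferon-type motifs can be compared beside the different responses. The windows are RefSeq sequences on GRCh38.p14, another build than the hg19 of the counts, and run from 250 bases before an annotated start to 30 bases after it. They were matched by symbol for 5 of the 8 genes (TNFSF10, FAS, FADD, CASP8 and CFLAR), with 12 windows in all. Capitals mark matches on either strand to the core of the interferon-stimulated response element (ISRE), or to TTCNNNGAA, the core of the gamma-activated site, and no 2 matches overlap.
TNFSF10 (chr3:172523401-172523680, minus strand): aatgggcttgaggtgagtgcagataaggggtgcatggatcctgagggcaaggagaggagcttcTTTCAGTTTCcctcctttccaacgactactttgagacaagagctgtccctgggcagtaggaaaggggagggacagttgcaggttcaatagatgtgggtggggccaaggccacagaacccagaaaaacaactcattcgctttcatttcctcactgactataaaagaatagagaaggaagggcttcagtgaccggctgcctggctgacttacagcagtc
FAS (chr10:88990548-88990827, plus strand, the first of 3 windows): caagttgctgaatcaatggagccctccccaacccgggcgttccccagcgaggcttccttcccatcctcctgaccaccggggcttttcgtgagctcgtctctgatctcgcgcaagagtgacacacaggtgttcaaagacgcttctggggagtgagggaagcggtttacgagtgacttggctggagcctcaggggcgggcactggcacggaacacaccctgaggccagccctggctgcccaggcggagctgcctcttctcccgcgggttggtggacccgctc
CASP8 (chr2:201233213-201233492, plus strand, the first of 3 windows): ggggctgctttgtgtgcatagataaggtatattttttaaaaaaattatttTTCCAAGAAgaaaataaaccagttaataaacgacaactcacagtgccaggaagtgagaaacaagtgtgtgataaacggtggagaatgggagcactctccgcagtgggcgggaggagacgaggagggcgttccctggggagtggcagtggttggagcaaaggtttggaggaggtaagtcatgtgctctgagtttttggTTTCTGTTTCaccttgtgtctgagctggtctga
The TNFSF10 window holds 1 match to the ISRE core, on the opposite strand and beginning 187 bases before the start. The CASP8 window holds 1 match to the same core, also on the opposite strand and beginning 3 bases before the start, and 1 to TTCNNNGAA, beginning 200 bases before it. The FAS window shown and the other 9 windows of these genes hold neither. Of 34943 promoter windows of this length, 3.39% hold the ISRE core and 7.30% hold TTCNNNGAA, and a match is only a run of letters.

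TNFRSF10B, which encodes the TRAIL receptor DR5, had the largest change of the 8 genes. It stood at 49.9, 54.9 and 54.3 CPM in n.t. cells and at 18.0, 21.1 and 20.4 CPM after maltonis. The groups were far apart, with every treated library below every n.t. library. On the log2 scale the change was −1.42 (SE 0.0830, 95% interval −1.60 to −1.23, edgeR FDR = 9.61e-07). It was −1.46 within batch A and −1.39 within batch B, and 18.4% of all genes had a change of larger size. TNFRSF10B was the one member beyond the 2.50-fold change that the study's criteria ask for in either direction, as were 10.4% of all genes in the direction of lower values. Higher values beyond it were found for 9.96% of all genes and for no member. The study also asked for a minimum RPKM, which was not applied here.

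TNFRSF10A encodes DR4, the other TRAIL receptor with a death domain. It stood at 21.5, 21.6 and 20.02 CPM in n.t. cells and at 10.9, 11.5 and 10.9 CPM after maltonis. The n.t. libraries were close to each other, as were the treated ones, and the groups did not overlap. This gave a log2 fold change of −0.92 (SE 0.0788, edgeR FDR = 9.43e-06), with −0.98 within batch A and −0.88 within batch B.

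TNFRSF10B gave up more of its level than TNFRSF10A in each batch. Within a library, the log2 ratio of TNFRSF10A to TNFRSF10B counts was −1.33 ± 0.115 in n.t. and −0.83 ± 0.0937 in treated cells (SD, n = 3, difference 0.50, two-sided exact permutation p = 0.1). This difference was 0.49 within batch A and 0.51 within batch B. The 3 values of each group lay apart from those of the other, and 0.1 is the smallest p that 3 libraries against 3 allow. Over the 5 ratios computed, the adjusted p of this and of the other 3 ratios whose groups lay apart was 0.125. The ratios do not depend on the scaling between libraries.

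FAS, which encodes the receptor of FAS ligand, moved the other way. Its level was 16.2, 19.1 and 16.9 CPM in n.t. and 23.4, 22.8 and 26.1 CPM in treated cells. The groups did not overlap, although the spread within each was wider than for the TRAIL receptors in proportion to the change. FAS changed by 0.46 on the log2 scale (SE 0.0921, 95% interval 0.25 to 0.67, edgeR FDR = 0.00166), with 0.53 within batch A and 0.44 within batch B. Without maltonis replicate 3, the highest library, it was 0.38 with an adjusted p of 0.0130, past the threshold no longer. The size of its change was exceeded by 58.8% of all genes.

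The ratio of FAS to TNFRSF10B counts, which is not corrected for length, was higher in every treated library than in every n.t. library. This separation follows from the single genes, since FAS was higher and TNFRSF10B lower in every treated library. The ratio gives the size of their joint shift, and its p is no further test. There were 0.328 FAS counts for each TNFRSF10B count in n.t. cells and 1.21 in treated cells, a 3.70-fold change of the ratio. The log2 ratio went from −1.61 ± 0.0789 to 0.28 ± 0.148 (SD, n = 3, two-sided exact permutation p = 0.1), by 1.995 within batch A and 1.83 within batch B. FAS-AS1, an antisense transcript at FAS picked out after its values were seen, had 9, 20 and 13 counts in n.t. and 19, 48 and 43 in treated cells (log2 fold change 1.49, edgeR FDR = 0.000694). The libraries were stranded but the strand setting of the counting is not given in the sources used here, so reads of FAS and FAS-AS1 cannot be told apart.

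**Figure D2:**
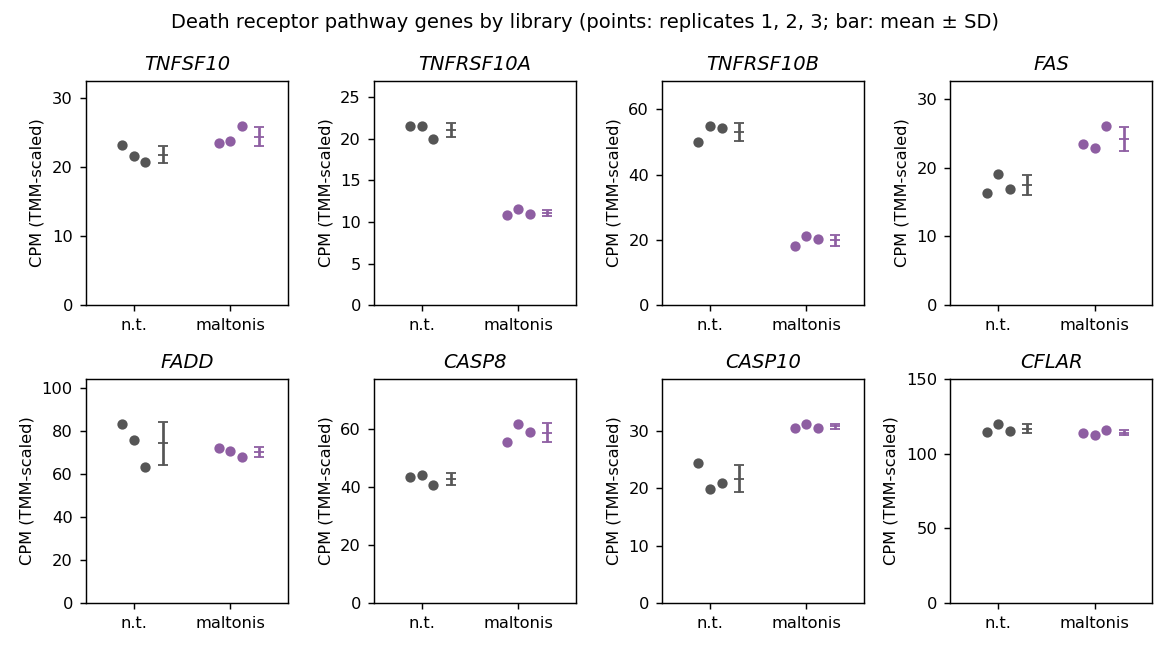
TMM-scaled CPM (y axes, starting at 0) of the 8 genes in each n.t. and maltonis-treated library. Points are replicates 1, 2 and 3 from left to right and bars the mean ± SD of 3 libraries. The points of the 2 groups overlap for FADD and CFLAR, lie next to each other for TNFSF10 and are apart for the other 5 genes.

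FADD, the adaptor shared by FAS and the TRAIL receptors, had levels of 83.5, 75.9 and 63.5 CPM in n.t. and 72.2, 70.6 and 68.0 CPM in treated cells. The n.t. libraries were spread around the treated ones. FADD had a log2 fold change of −0.08 (SE 0.0971, 95% interval −0.30 to 0.14, edgeR FDR = 0.484), and its sign turned when libraries were scaled by total counts or upper quartile. The interval leaves room for a fold between 0.812 and 1.10. The log2 difference was −0.21 within batch A and −0.0019 within batch B.

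CASP8, the main initiator caspase of the complex, rose in maltonis-treated cells. It stood at 43.6, 44.2 and 40.6 CPM in n.t. and at 55.5, 61.9 and 58.9 CPM in treated cells. All treated libraries lay above all n.t. libraries. CASP8 changed by 0.46 on the log2 scale (SE 0.0704, 95% interval 0.30 to 0.62, edgeR FDR = 0.000349), with 0.35 within batch A and 0.51 within batch B. Among all genes, 59.2% had a change of larger size.

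CASP10 encodes the close relative of caspase-8 that FADD also recruits. Its level was 24.3, 19.9 and 20.9 CPM in n.t. and 30.6, 31.3 and 30.6 CPM in treated cells. The treated libraries were nearly equal, and n.t. replicate 1 was the highest of its group but under all of them. The log2 fold change was 0.51 (SE 0.0877, edgeR FDR = 0.000676), with 0.33 within batch A and 0.60 within batch B. A change of larger size was found for 55.5% of all genes. The log2 ratio of CASP10 to CASP8 counts was −0.98 ± 0.158 in n.t. and −0.93 ± 0.0633 in treated cells (SD, n = 3), with overlapping values and a difference of 0.05 (two-sided exact permutation p = 0.8).

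CFLAR, which encodes c-FLIP, had the largest counts of the 8 genes, not corrected for its length. It stood at 114.7, 120.1 and 115.1 CPM in n.t. and at 113.6, 112.3 and 115.8 CPM in treated cells. The groups overlapped. The log2 fold change was −0.03 (SE 0.0533, 95% interval −0.16 to 0.09, edgeR FDR = 0.577), and its sign turned with total counts or upper quartile scaling. The interval leaves room for a fold between 0.897 and 1.06, and on the log2 scale it was the narrowest among the 8 genes. The log2 difference was −0.01 within batch A and −0.04 within batch B. CFLAR-AS1, an antisense transcript within CFLAR, had 1 to 7 counts in a library and was not tested.

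Counts of both partners were lower for each CASP8 count in treated cells. CFLAR gave 2.73 counts for each CASP8 count in n.t. cells and 1.94 in treated cells, with log2 ratios of 1.45 ± 0.0550 and 0.96 ± 0.0881 (SD, n = 3, difference −0.49, two-sided exact permutation p = 0.1). The difference was −0.36 within batch A and −0.56 within batch B. FADD gave 1.73 and 1.20 counts for each CASP8 count, with log2 ratios of 0.79 ± 0.145 and 0.26 ± 0.104 (SD, n = 3, difference −0.53, two-sided exact permutation p = 0.1), or −0.56 within batch A and −0.51 within batch B. In both ratios the groups did not overlap. CASP8 was higher in every treated library, while CFLAR and FADD did not pass the test. Both shifts thus largely restate the rise of CASP8, and their p is no further test. The counts are not corrected for length. CFLAR yields long and short forms of c-FLIP from alternative transcripts, which counts per gene do not separate.

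Levels of different genes were compared per length, as reads per kilobase of exon, scaled like the CPM (RPKM) over the union of a gene's exons. In n.t. cells FADD was the highest at 40.4 ± 5.49 RPKM (SD, n = 3). TNFRSF10B followed at 10.3, TNFRSF10A at 7.13, TNFSF10 at 6.26, CASP8 at 5.91, CFLAR at 5.18, FAS at 4.10 and CASP10 at 2.86 RPKM. TNFSF10 and CASP8 did not differ beyond their spread, and all other neighbors in this order did. In treated cells the order was FADD at 38.2, CASP8 at 8.11, TNFSF10 at 7.01, FAS at 5.67, CFLAR at 5.06, CASP10 at 4.05, TNFRSF10B at 3.85 and TNFRSF10A at 3.77 RPKM. The last 3 overlapped, CASP10 with TNFRSF10B and TNFRSF10B with TNFRSF10A. By this length the TRAIL receptors went from the second and the third place to the last places. The last places in treated cells were the same with the longest transcript or the longest coding sequence, but those in n.t. cells were not. There TNFRSF10B stood at place 3 with both, and TNFRSF10A at place 6 with the longest transcript and at place 7 with the coding sequence, from which it moved only to place 8. CFLAR depends most on that choice, because its annotated exons sum to 22529 bases around a coding sequence of 1440 bases. With coding length it stood second in both groups, at 81.0 RPKM in n.t. and 79.1 RPKM in treated cells.

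Other genes of the pathway were taken from 10 lists of 65 genes grouped by role, of which 54 were tested. Of these 54, 21 were higher and 16 lower at an FDR under 0.01, or 38.9% and 29.6%, against the 31.9% and 32.1% of all genes. The median log2 fold change of the 54 genes was 0.01, as over all genes. The steepest changes in both directions were those of a TRAIL decoy receptor and of TNF.

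TNFRSF10D encodes the decoy receptor DcR2, which binds TRAIL with an incomplete death domain. Its level was 23.9, 26.2 and 23.4 CPM in n.t. cells and 145, 155 and 152 CPM in treated cells. The treated libraries lay close together and far above the n.t. libraries. The change was 2.62 on the log2 scale (SE 0.0693, edgeR FDR = 2.62e-08), a 6.14-fold rise. TNFRSF10C, the decoy receptor DcR1 that has no cytoplasmic part, rose from 2.62 ± 0.316 to 5.29 ± 0.579 CPM (SD, n = 3, log2 fold change 1.01, edgeR FDR = 0.000233). TNFRSF11B, a soluble receptor that also binds TRAIL, stood at 0.612 and 0.567 CPM with an adjusted p of 0.637. The soluble FAS ligand decoy TNFRSF6B had at most 18 counts in a library and was not tested.

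Death and decoy receptor genes of TRAIL moved in opposite directions. Per length, the decoy genes TNFRSF10C and TNFRSF10D made up 32.6%, 33.3% and 31.1% of the summed RPKM of the 4 TRAIL receptor genes in n.t. replicates 1, 2 and 3. They made up 86.0%, 85.3% and 85.6% in the treated ones. This share was computed after the single values had been seen, so no p is given for it. The summed RPKM of the 4 genes went from 25.7 ± 1.01 to 53.1 ± 1.57 (SD, n = 3). Within this sum, TNFRSF10D alone went from 6.93 ± 0.424 to 42.6 ± 1.40 RPKM (SD, n = 3). The shifts of the share and of the sum are thus mainly those of TNFRSF10D. With coding length the shares were 30.8% ± 1.17 and 85.7% ± 0.444 (SD, n = 3). With the longest transcript they were 29.1% ± 1.09 and 83.7% ± 0.430 (SD, n = 3). The 4 genes are similar in sequence, and their values are uncertain where the counting could have split reads between them.

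**Figure D3:**
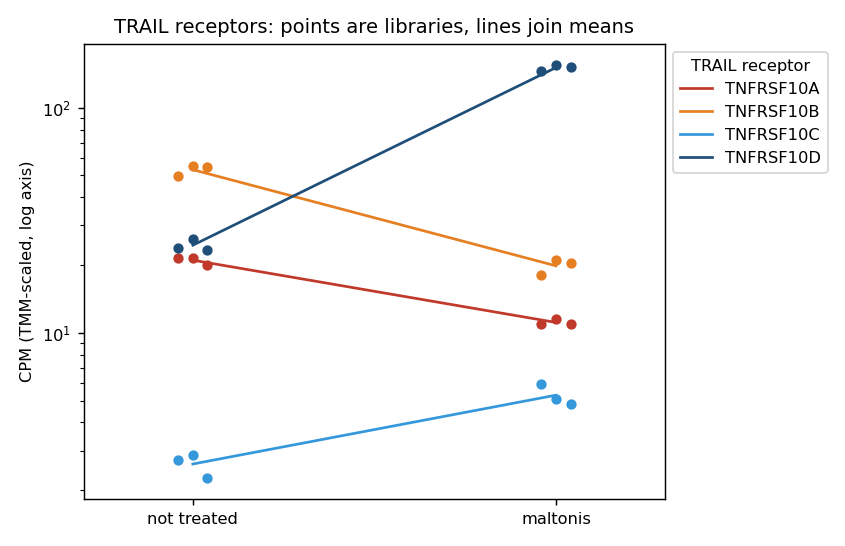
TMM-scaled CPM (log axis) of the 4 TRAIL receptor genes in n.t. and maltonis-treated cells. Points are single libraries and lines join the group means. The death receptor genes TNFRSF10A and TNFRSF10B go down and the decoy genes TNFRSF10C and TNFRSF10D go up.

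Among the other ligands of the family, TNF had the steepest fall. It went from 115.6 ± 3.91 to 18.7 ± 2.97 CPM (SD, n = 3), or −2.63 on the log2 scale (SE 0.107, edgeR FDR = 1.55e-07). LTA, encoding lymphotoxin alpha, stood at 0.532 and 0.387 CPM with an adjusted p of 0.314. FASLG, the gene of FAS ligand, had at most 2 counts in a library, under the floor of 3. Of the other receptors with a death domain, TNFRSF1A, the main TNF receptor, fell from 170.6 ± 8.60 to 118.3 ± 5.37 CPM (SD, n = 3, log2 fold change −0.53). TNFRSF25, the receptor DR3, fell from 10.99 ± 1.29 to 5.92 ± 0.671 CPM (SD, n = 3, log2 fold change −0.89), while TNFRSF21, the receptor DR6, stood at 10.0 and 9.27 CPM with an adjusted p of 0.485. Their edgeR FDR was 7.23e-05 for TNFRSF1A and 0.000216 for TNFRSF25.

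Of 11 tested adaptors and kinases of the receptor complexes, 5 were higher and 4 lower, beside 31.9% and 32.1% of all genes, with a median log2 fold change of 0.25. The lists hold too few genes for such counts to be read as a result about a list. CRADD, an adaptor with a death domain, rose by 0.89 on the log2 scale. DEDD, a protein with a death effector domain as in FADD, rose by 0.85, and RIPK1, a kinase of the TNF receptor complexes, by 0.71. TRAF1, a signaling adaptor of the TNF receptor family, fell by 2.01 on the log2 scale, from 9.96 ± 0.805 to 2.50 ± 0.483 CPM (SD, n = 3). PEA15, whose death effector domain binds FADD and caspase-8, fell by 1.13. MLKL, the executor of necroptosis, fell by 0.29, a call lost without n.t. replicate 2 or maltonis replicate 2 (edgeR FDR 0.0130 to 0.0137) and with total counts (FDR 0.0330) or upper quartile scaling (FDR 0.0162). Its partner kinase gene RIPK3 had at most 12 counts in a library and was not tested.

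Of 8 ubiquitin ligases and related regulators of these complexes, 5 were higher and 1 lower, beside 31.9% and 32.1% of all genes, with a median log2 fold change of 0.26. RNF31 and RBCK1, subunits of the linear ubiquitin assembly complex, rose by 1.26 and 0.78 on the log2 scale. BIRC2, which encodes cIAP1, rose by 0.74. TNFAIP3, encoding the NF-kB inhibitor A20, fell by 1.38, from 93.0 ± 11.9 to 35.7 ± 0.628 CPM (SD, n = 3).

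Of the other initiator and executioner caspases, CASP9, the initiator of the mitochondrial pathway, rose from 10.96 ± 1.42 to 17.6 ± 0.682 CPM (SD, n = 3, log2 fold change 0.69). Both inflammatory caspases that were tested rose. CASP4, a sensor of bacterial lipopolysaccharide, went from 42.9 ± 2.08 to 134 ± 6.19 CPM (SD, n = 3, log2 fold change 1.65), and CASP1, which matures interleukin-1 beta, had a log2 fold change of 0.90. CASP5, CASP12 and CASP14 had no library above 3 counts.

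Of 6 genes of the mitochondrial link and of caspase activation, 3 were higher and 2 lower, beside the 64% of all genes that were called either way. BID, whose product caspase-8 cleaves to engage mitochondria, fell from 139 ± 13.4 to 48.5 ± 2.03 CPM (SD, n = 3, log2 fold change −1.52). CYCS, the gene of cytochrome c, fell by 0.83 on the log2 scale. APAF1, which cytochrome c turns into the scaffold of caspase-9, rose by 1.06, and HTRA2 and DIABLO, mitochondrial proteins that block caspase inhibitors, rose by 1.75 and 0.50. Of 4 tested caspase inhibitors and related genes, XIAP, which blocks caspases directly, rose by 0.47, FAIM, a FAS apoptosis inhibitor, fell by 1.40, and the other 2 did not pass the test.

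Of 10 genes whose products caspases cleave in the execution phase or that act in it, 1 was higher and 5 lower, near the 64% of all genes called either way, with a median of −0.28. DFFB, the caspase-activated DNase, rose by 1.16 on the log2 scale while DFFA, its inhibitor and chaperone, fell by 0.64. PARP1 fell from 436 ± 32.9 to 180 ± 2.97 CPM (SD, n = 3, log2 fold change −1.28) and LMNA, encoding lamin A, fell by 0.99. Adjusted p-values of the genes named as changed in the lists from adaptors to substrates lay between 1.43e-07 and 0.00262 in edgeR.

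**Figure D4:**
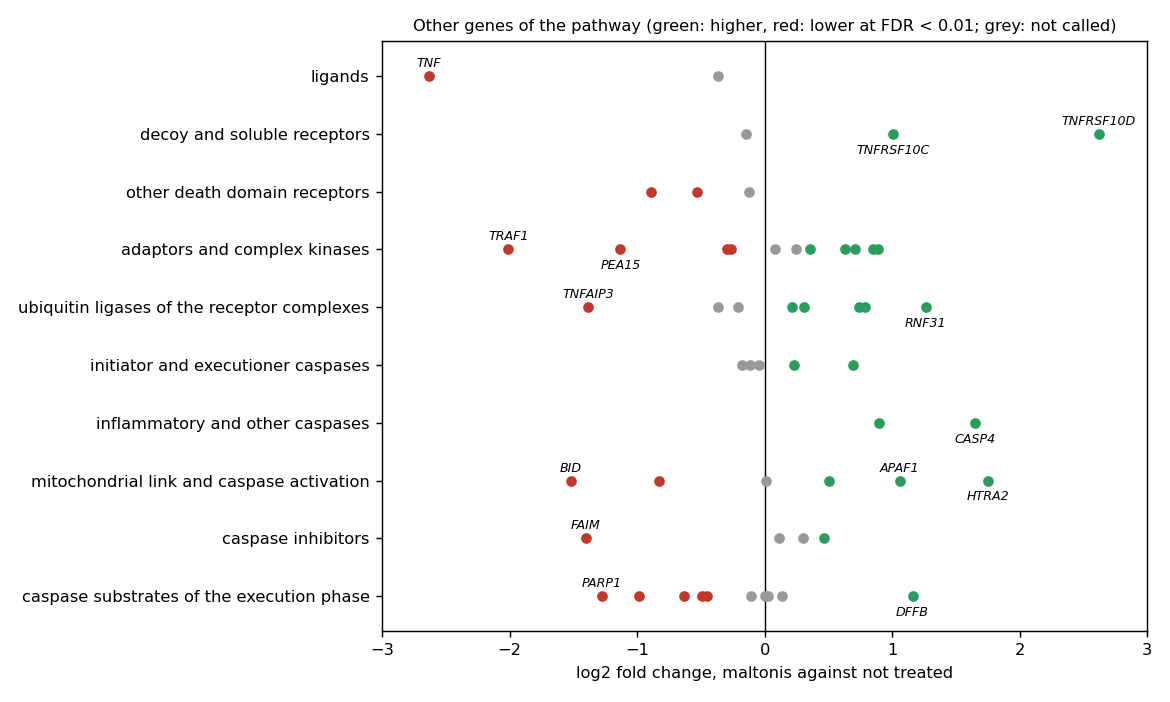
Log2 fold change (x axis) of the 54 tested genes of the 10 lists (y axis), each point 1 gene, with names for those beyond 1 in size. TNFRSF10D lies farthest to the right and TNF farthest to the left, and most lists hold points on both sides of 0.

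CFLAR, CASP10 and CASP8 lie side by side on the long arm of chromosome 2, and the 4 TRAIL receptor genes side by side on the short arm of chromosome 8, by the gene order of GENCODE release 29. On chromosome 2, PPIL3 and ORC2 were higher, with log2 fold changes of 0.52 and 0.37, and NDUFB3, next to CFLAR, was lower at −0.90. Past CASP8 and 1 gene that was not called, TRAK2, STRADB and TMEM237 were lower, with −0.81, −0.90 and −0.68. CFLAR, between NDUFB3 and CASP10, was not called.

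At the TRAIL receptor genes, genes next to each other moved in opposite directions. TNFRSF10B and TNFRSF10A, both lower, enclose TNFRSF10C and TNFRSF10D, both higher. On the TNFRSF10A side, CHMP7 and ENTPD4 were higher, with log2 fold changes of 0.44 and 0.30, and R3HCC1, between them, fell to a log2 fold change of −5.52, from 40.4 to 0.933 CPM. On the TNFRSF10B side, BIN3 and KIAA1967 were lower, at −0.45 and −0.27, with an edgeR FDR of 0.00956 for KIAA1967. Without any 1 of 5 libraries, all but n.t. replicate 1, the adjusted p of KIAA1967 lay between 0.0183 and 0.0397. Its call was also lost with total counts (log2 fold change −0.15, edgeR FDR 0.0860), upper quartile scaling (−0.18, FDR 0.0464) and a filter at 1 CPM in 3 libraries (FDR 0.0130). ORC2 on chromosome 2 and ENTPD4 here also lost their call without single libraries, ORC2 without maltonis replicate 2 or 3 and ENTPD4 without n.t. replicate 2 or maltonis replicate 2 or 3.

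**Figure D5:**
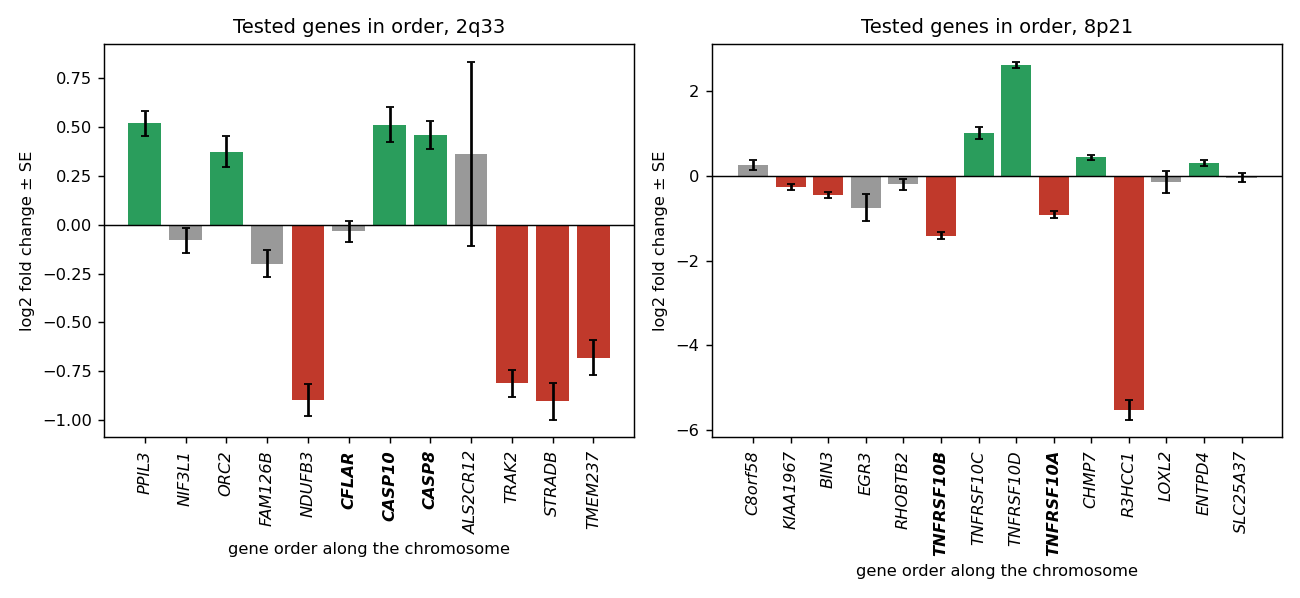
Log2 fold change ± standard error (y axes) of the tested genes shown, in their order along the chromosome, around CFLAR, CASP10 and CASP8 (left) and around the TRAIL receptors (right), with member genes in bold. Green bars are higher and red bars lower at an FDR under 0.01, and grey bars were not called. R3HCC1 has the longest bar on the right, and the 4 TRAIL receptors alternate from lower to higher and back.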

How the data were processed

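RNA-seq of not treated and maltonis-treated NB4 cells, 3 biological replicates per group, was deposited by the authors as HTSeq counts, 1 table per library, with whole numbers of reads per gene symbol and no normalization. The submitters' processing notes name TopHat, Bowtie2 and HTSeq with hg19, and versions, annotation and strand setting are not given in the sources used here. The test was edgeR 4.0.16 in R 4.3.3 (TMM, filterByExpr, quasi-likelihood test of all 6 libraries, no covariates), with Benjamini-Hochberg adjustment over 13209 genes and calls at an FDR under 0.01. Standard errors are the size of the log2 fold change divided by the root of the F statistic. RPKM used GENCODE release 29 lengths, found for 21670 of 23368 symbols. Within-library ratios (0.5 added to each count) were tested by exact permutation with scipy 1.17.1.

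The 8 genes and the pathway lists were given by name and not by a threshold, but were chosen with earlier results of these data known. Named from each list were the called genes with the 3 largest changes in each direction whose groups did not overlap, tested ligands and receptors, the 5 genes most like TNFSF10 and called neighbors, of which 2 genes are not reported here. OTULIN was found as FAM105B. Replicate pairs differed by more than sampling noise (chi-square per degree of freedom 4.15 to 33.1), so each library counted as 1 sample. The test was first checked on simulated counts, where 96 of 100 genes changed by 1 on the log2 scale, and 100 of 100 changed by 2, were recovered among 12674. Only these genes were changed there, equally many up and down and without batches, whereas 64% of all genes were called in the data. The check therefore does not cover the scaling or the FDR with so many changed genes. Alternatives covered scaling, test (DESeq2 1.42.0, likelihood ratio), filter, replicate block, batch, single libraries left out, call rule, prior count and length.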

Additional observations from a re-analysis of the deposited data

How the results depend on the processing

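The calls of TNFRSF10A, TNFRSF10B, CASP8 and CASP10 held in all 16 alternative fits, with log2 fold changes from −0.97 to −0.80, −1.49 to −1.30, 0.40 to 0.58 and 0.44 to 0.63, and TNFSF10 stayed uncalled, with 0.09 without maltonis replicate 3 to 0.28 with total counts (adjusted p 0.349 and 0.0110). FAS ranged from 0.38 to 0.53 with single libraries left out and lost its call without maltonis replicate 3. FADD turned to 0.040 with total counts and 0.0085 with upper quartile scaling, and ranged from −0.19 to 0.000546 with libraries left out, the latter without not treated replicate 1. CFLAR turned to 0.085 and 0.053 under the same scalings. Total counts moved the median of all genes by 0.12, and both values lie below that shift. The CASP10 to CASP8 difference ranged from −0.030 (without not treated replicate 2) to 0.126 with libraries left out, an alternative chosen after seeing the data. Adding the log2 fold change criterion of the study left 1316 higher and 1369 lower genes over all, 3 and 5 of the pathway lists, and 0 and 1 of the 8 members. The minimum RPKM that the study also asked for was not applied, so these are not counts by its full criteria. The highest member log2 fold change was 0.51, and the same 0 and 1 came with an unadjusted p under 0.05 from edgeR and with DESeq2 at the FDR of 0.01. In n.t. cells 4 members kept their RPKM rank with the longest transcript and 2 with the longest coding sequence, and in treated cells 4 with the latter. Same-numbered libraries deviated together with correlations of 0.301, 0.0852 and 0.161, and n.t. replicate 2 correlated better with maltonis replicate 3 (0.123), so the numbers were not taken as pairs. With the replicate block, 4602 genes were higher and 4620 lower, against 4213 and 4239 without it, and the member calls stayed at 3 higher and 2 lower. TNFRSF21 ranged from −0.27 to 0.00202, turning sign without not treated replicate 2. Of 814 refits of other named genes, 780 kept direction and call. Depth limits the genes near the floor, such as FASLG.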
